A study of Mus musculus with 17 samples.

Results

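The laminin subunits and nidogens described here are 8 genes, taken by symbol from the 43430 Ensembl genes counted in each of 2 tables: Lama3, Lama5, Lamb1, Lamb2, Lamb3, Lamc1, Nid1 and Nid2. They were measured by RNA sequencing in 17 libraries of alveolar epithelial type 2 (AT2) cells, the surfactant-making cells of the lung alveolus, flow-sorted from C57BL/6J mice aged 2 months. In the first experiment all mice were naive and were sampled 24 h after vehicle (4 libraries) or after ISRIB (4 libraries), a compound that restores translation when the integrated stress response holds it down. The second experiment held 4 libraries from naive mice and 5 from mice given bleomycin, a drug that injures the lung epithelium and leads to fibrosis, and sampled at 14 days. All 9 of these libraries carry the treatment label Vehicle and a title with the word Saline. No dose is given for either drug, and nothing in the labels says which libraries came from separate animals, so p-values measure the spread between libraries, which may be partly technical.

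Laminins are trimers of 1 alpha, 1 beta and 1 gamma chain. Many, though not all, are cross-shaped and polymerise into the sheet of the basement membrane next to the cell. Nidogens bind the laminin gamma 1 chain and bridge the laminin sheet to the collagen IV network. The alpha 3 chain (Lama3) and the beta 3 chain (Lamb3) belong to the epithelial laminin that anchors cells through integrins. The alpha 5 chain (Lama5) is the main alpha chain of mature alveolar basement membrane and pairs with beta 1 (Lamb1) or beta 2 (Lamb2) and with gamma 1 (Lamc1). Nidogen-1 and nidogen-2 are made mostly by mesenchymal and endothelial cells, and AT2 cells rest on the resulting membrane.

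The 2 experiments used different kits and were never joined in a model. The ISRIB experiment used 3 ng of RNA and poly(A) selection and gave 10493574 to 15727139 counts per library. The bleomycin experiment used 0.35 ng and a total-RNA kit and gave 3295257 to 6333166 counts. Levels are CPM, the share of a library's counts scaled to a common total, after trimmed-mean (TMM) scaling. Changes are log2 fold changes with standard errors (SE) from edgeR's two-sided quasi-likelihood test, and a gene was called at a Benjamini-Hochberg adjusted p under 0.05. Summed markers of AT2 cells ran from 172472 to 185564 CPM in the poly(A) libraries and from 47120 to 85400 CPM in the total-RNA libraries, where bleomycin 1 and bleomycin 2 were the lowest. Over the whole table the libraries ISRIB 2 and ISRIB 4 stood apart from ISRIB 1 and ISRIB 3: chi-square per degree of freedom was 4.379 and 3.502 within these pairs and 7.80 to 8.94 across them. Among the bleomycin libraries it was 7.337 between bleomycin 3 and bleomycin 5 and 16.58 to 46.21 for all other pairs, beside 4.205 to 18.3 among the naive libraries. Results that rest on ISRIB 2 and ISRIB 4 are given with and without them.

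Promoter windows from RefSeq (GRCm38.p6) are shown for 4 members with unlike responses to bleomycin: Lamb3, Lama5 and Lamb1, which were called higher, and Lamb2, which was not called. Each runs 5′ to 3′ on the gene's own strand and starts 250 bases upstream of the gene's RefSeq start. For Lamb3 that RefSeq start lies inside the GENCODE gene. A window ends at the base before the RefSeq start or, where an annotated exon comes first, at the base before that exon. Windows shortened in this way (Lamb3, Lamb1 and Lamb2) lack the bases nearest the RefSeq start. Windows were held for 5 of the 8 members. Capitals mark GC boxes (GGGCGG on either strand, the site of Sp-family factors) and CCAAT boxes (either strand). The 4 windows lie at chr1:193301744-193301992 (Lamb3, plus strand), chr2:180225860-180226109 (Lama5, minus strand), chr12:31265043-31265233 (Lamb1, plus strand) and chr9:108479612-108479735 (Lamb2, plus strand).
Lamb3: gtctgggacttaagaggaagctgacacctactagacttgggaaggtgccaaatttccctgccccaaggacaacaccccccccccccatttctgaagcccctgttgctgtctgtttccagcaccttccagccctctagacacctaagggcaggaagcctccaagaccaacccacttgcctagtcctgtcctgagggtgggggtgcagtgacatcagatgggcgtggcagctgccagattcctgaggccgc
Lama5: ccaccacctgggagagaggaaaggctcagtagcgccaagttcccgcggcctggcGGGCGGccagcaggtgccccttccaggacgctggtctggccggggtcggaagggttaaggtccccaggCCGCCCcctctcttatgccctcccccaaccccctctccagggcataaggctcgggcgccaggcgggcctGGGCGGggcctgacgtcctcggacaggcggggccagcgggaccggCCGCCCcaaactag
Lamb1: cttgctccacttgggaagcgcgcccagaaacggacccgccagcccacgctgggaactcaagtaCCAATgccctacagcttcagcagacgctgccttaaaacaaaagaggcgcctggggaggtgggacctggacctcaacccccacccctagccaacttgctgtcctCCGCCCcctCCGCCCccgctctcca
Lamb2: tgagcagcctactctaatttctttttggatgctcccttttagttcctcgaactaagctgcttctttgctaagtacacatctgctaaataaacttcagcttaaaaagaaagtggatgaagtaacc

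The 250-base Lama5 window held 4 GC boxes, where 32.7% of all 32851 promoter windows of that length held at least 1. The 191-base Lamb1 window held 2 GC boxes and 1 CCAAT box. These were found in 23.1% and 26.9% of windows when cut to their 191 farthest upstream bases. Neither motif was found in the windows of Lamb3 and Lamb2, the latter holding only the 124 farthest upstream bases. The AP-1 motif TGANTCA and the TATA box TATAAA, also searched on both strands, had no match in any of the 4 windows; at 250 bases they occurred in 6.75% and 12.4% of promoters. No motif searched was present in all 3 windows of members called higher after bleomycin. A match or its absence describes these letters only.

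In GENCODE M21 (GRCm38), Lamb3 lies on chromosome 1 at 193207699 to 193343878 on the plus strand, and Lamc1 lies on the minus strand of the same chromosome at 153218922 to 153332786. Lama5 lies on chromosome 2 (minus strand, 180176373 to 180225859), Lamb1 on chromosome 12 (plus strand, 31265234 to 31329644) and Lamb2 on chromosome 9 (plus strand, 108479736 to 108490530). Lama3 lies on chromosome 18 (plus strand, 12333819 to 12583013), Nid1 on chromosome 13 (plus strand, 13437551 to 13512269) and Nid2 on chromosome 14 (plus strand, 19751265 to 19811787). All values here are counts over a gene's exons as the authors tallied them. Whether reads were counted by strand is not stated by the labels or notes used here, and exons of Lama3, Nid1 and Nid2 overlap exons of a gene on the opposite strand over 197, 143 and 437 bases, so their reads may include some of that neighbour's. The annotated exons of the other 5 members overlap none. Lama3 is annotated with a long and a short transcript, which counts per gene do not separate.

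To compare levels between genes, CPM were divided by the length of each gene's merged exons and are given as CPM per kb. In the vehicle libraries the members fell into a high and a low set. Lamb2 (46.0 ± 1.64 CPM per kb, SD, n = 4) and Lamb3 (43.3 ± 2.41) led, and their libraries overlapped. Lamc1 (17.7 ± 1.07), Lama5 (14.6 ± 0.495) and Lama3 (8.64 ± 1.24) followed, each clear of its neighbours. The low set was Lamb1 (0.633 ± 0.059), Nid1 (0.126 ± 0.0701) and Nid2 (0.0498 ± 0.0188), of which only the nidogens overlapped each other. Lamb2 thus stood far above Lamb1, the other beta chain that joins alpha 5 and gamma 1, in every vehicle library.

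In the naive total-RNA libraries Lamb3 (27.3 ± 1.69 CPM per kb, SD, n = 4) and Lamb2 (26.0 ± 1.01) again led and overlapped. Lama5 (16.2 ± 0.611), Lamc1 (14.3 ± 1.34) and Lama3 (10.7 ± 1.44) came next without overlap, then Lamb1 (0.311 ± 0.169), Nid1 (0.0904 ± 0.0358) and Nid2 (0.0733 ± 0.0843). After bleomycin the order changed below Lamb3 (38.0 ± 2.79, n = 5): Lamc1 stood at 29.4 ± 4.62, above Lamb2 at 25.3 ± 2.90 and Lama5 at 24.1 ± 4.24, and these neighbours overlapped. Lama3 was at 13 ± 3.30, clear of Lama5 above it. Lamb1 (1.06 ± 0.815), Nid1 (0.528 ± 0.352) and Nid2 (0.127 ± 0.231) remained the lowest, with overlap between neighbours. In every group the 5 chains from Lama3 up to Lamb2 or Lamb3 were well above Lamb1 and the nidogens.

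**Figure D1:**
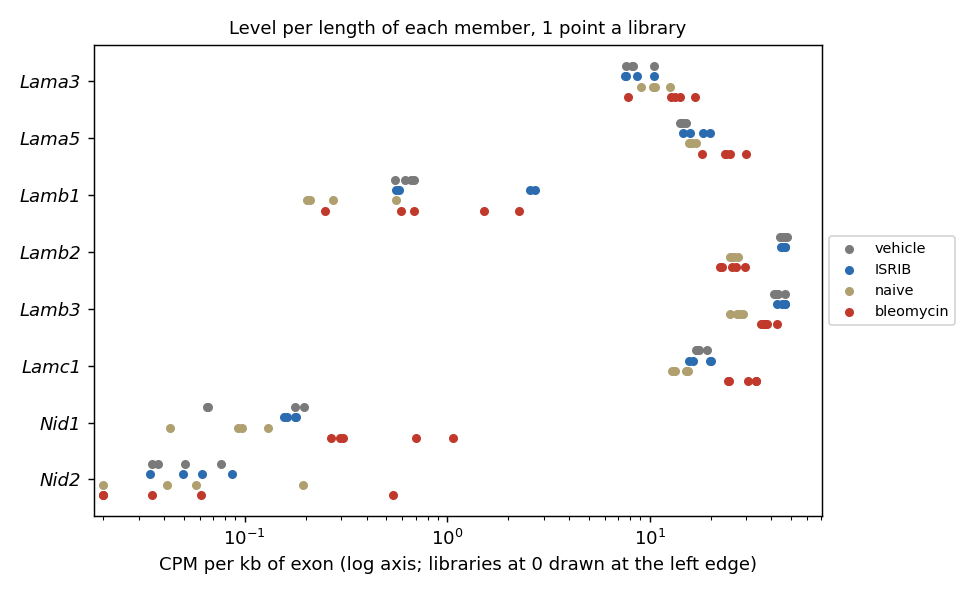
Level of each member in CPM per kb of exon, on a log axis, with 1 point for each of the 17 libraries coloured by group. Lama3, Lama5, Lamb2, Lamb3 and Lamc1 lie to the right of Lamb1, Nid1 and Nid2 in every group, and Lamb1 in the ISRIB group splits into 2 low and 2 high libraries.

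ISRIB against vehicle asked whether the drug alters AT2 transcripts in uninjured mice at 24 h. No member was called in either direction by edgeR among the 7 that passed the filter on low counts, against a background of 265 of 12054 genes called (2.2%), 133 higher (1.1%) and 132 lower (1.1%). That background moved with single libraries, to 86 genes called without vehicle 1, 102 without vehicle 2 and 159 without ISRIB 4, and DESeq2 called 406. DESeq2 also called 0 members. By edgeR 2 of the 7 members (Lamb1 and Lama5) had an unadjusted p under 0.05, as did 1934 of all 12054 genes. The members' median log2 fold change was 0.07, beside -0.00014 over all genes tested. No tested member had groups that did not overlap, against 8.65% of all genes.

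The epithelial chains Lama3 and Lamb3 were not called. Lamb3 was at 309, 279, 286 and 272 CPM in vehicle 1 to 4 and at 299, 309, 281 and 310 CPM in ISRIB 1 to 4. The ranges overlap, and the log2 difference was 0.07 (SE 0.05, adjusted p = 0.605, edgeR). Lama3 was at 112, 82.6, 88.0 and 88.5 CPM after vehicle and at 82.0, 93.6, 80.9 and 113 CPM after ISRIB. The highest libraries were vehicle 1 and ISRIB 4, and ISRIB 2 and ISRIB 4 were above ISRIB 1 and ISRIB 3. The log2 fold change was -0.01 (SE 0.10, adjusted p = 0.978, edgeR), and -0.19 (adjusted p = 0.43) without ISRIB 2 and ISRIB 4.

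Lama5 was at 164, 167, 173 and 160 CPM after vehicle and at 180, 226, 167 and 209 CPM after ISRIB. The libraries ISRIB 2 and ISRIB 4 were the high ones, and ISRIB 3 lay within the vehicle range. The log2 fold change of 0.23 (SE 0.08) missed the threshold (adjusted p = 0.134, edgeR) and was 0.06 (adjusted p = 0.728) without ISRIB 2 and ISRIB 4. Without ISRIB 3 it was 0.30 and passed (adjusted p = 0.0449). Lamb2, the abundant beta chain, was at 268 to 292 CPM after vehicle and at 272 to 282 CPM after ISRIB (-0.0081, SE 0.05, adjusted p = 0.96, edgeR). Lamc1 was at 159, 145, 141 and 140 CPM after vehicle and at 129, 166, 136 and 164 CPM after ISRIB. Its ISRIB libraries lay on both sides of the vehicle ones (0.02, SE 0.08, adjusted p = 0.927, edgeR).

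Lamb1 split the ISRIB group. Vehicle 1 to 4 held 6.84, 6.15, 5.51 and 6.60 CPM (counts 78, 68, 84 and 68). The ISRIB libraries 1 and 3 held 5.75 and 5.55 CPM (counts 90 and 62), within the vehicle range, while ISRIB 2 and ISRIB 4 held 26.9 and 25.5 CPM (counts 336 and 291). The log2 fold change of 1.34 (SE 0.41) was not called (adjusted p = 0.104, edgeR). Without ISRIB 2 and ISRIB 4 it was -0.14 (adjusted p = 0.802), and without ISRIB 1 or ISRIB 3 it was 1.64 or 1.61 and passed (adjusted p = 0.0212 and 0.0351).

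The genes most like Lamb1 over the 8 poly(A) libraries, by Pearson correlation of log2 CPM, were Lyz1 (r = 0.987), Agtrap (0.974) and Akap5 (0.967). This comparison was chosen after the values of Lamb1 were seen and is a description, in which the split of ISRIB 2 and ISRIB 4 sets most of r. Lyz1, a lysozyme, was at 3564 CPM in ISRIB 2 and 3946 CPM in ISRIB 4 and at 1972 to 2335 CPM in the other 6 libraries. Akap5 is also in the alveolar type 1 marker list used here, but the sum of that list did not follow it. Alveolar type 1 markers summed to 2519 and 2606 CPM in ISRIB 2 and ISRIB 4 and to 2743 and 2609 CPM in ISRIB 1 and ISRIB 3. The vehicle libraries were at 2673 to 2855 CPM. Several summed marker lists set ISRIB 2 and ISRIB 4 apart from ISRIB 1 and ISRIB 3. AT2 markers summed to 172472 and 174359 CPM in ISRIB 2 and ISRIB 4 and to 185564 and 185426 CPM in ISRIB 1 and ISRIB 3. Airway markers summed to 3278 and 2366 CPM against 4164 and 4030 CPM (vehicle 3830 to 4288 CPM). Mesothelial markers summed to 6.73 and 5.09 CPM against 11.9 and 13.1 CPM (vehicle 6.58 to 12.2 CPM, a range that holds ISRIB 2). Transitional epithelial markers were at 688 and 715 CPM in ISRIB 2 and ISRIB 4 against 610 and 618 CPM, but at 692 to 822 CPM after vehicle. Macrophage and monocyte markers, mostly Lyz2 (mean 36944 CPM after ISRIB), summed to 39114 and 38492 CPM against 35375 and 35130 CPM (vehicle 33876 to 37322 CPM). That sum mainly reads Lyz2: Ptprc, the defining leukocyte marker, was at 0 to 0.197 CPM after vehicle and 0 to 0.0877 CPM after ISRIB. Endothelial markers summed to 68.2 and 66.7 CPM against 62.8 and 58.5 CPM (vehicle 51.1 to 73.7 CPM). Fibroblast sums (25.5 and 13.9 CPM against 19.9 and 26.4 CPM) and Foxj1, the ciliated-cell regulator (11.9 and 7.28 CPM against 8.49 and 9.21 CPM), did not part the libraries in this way. The part of these differences in the Lamb1 values was not tested.

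**Figure D2:**
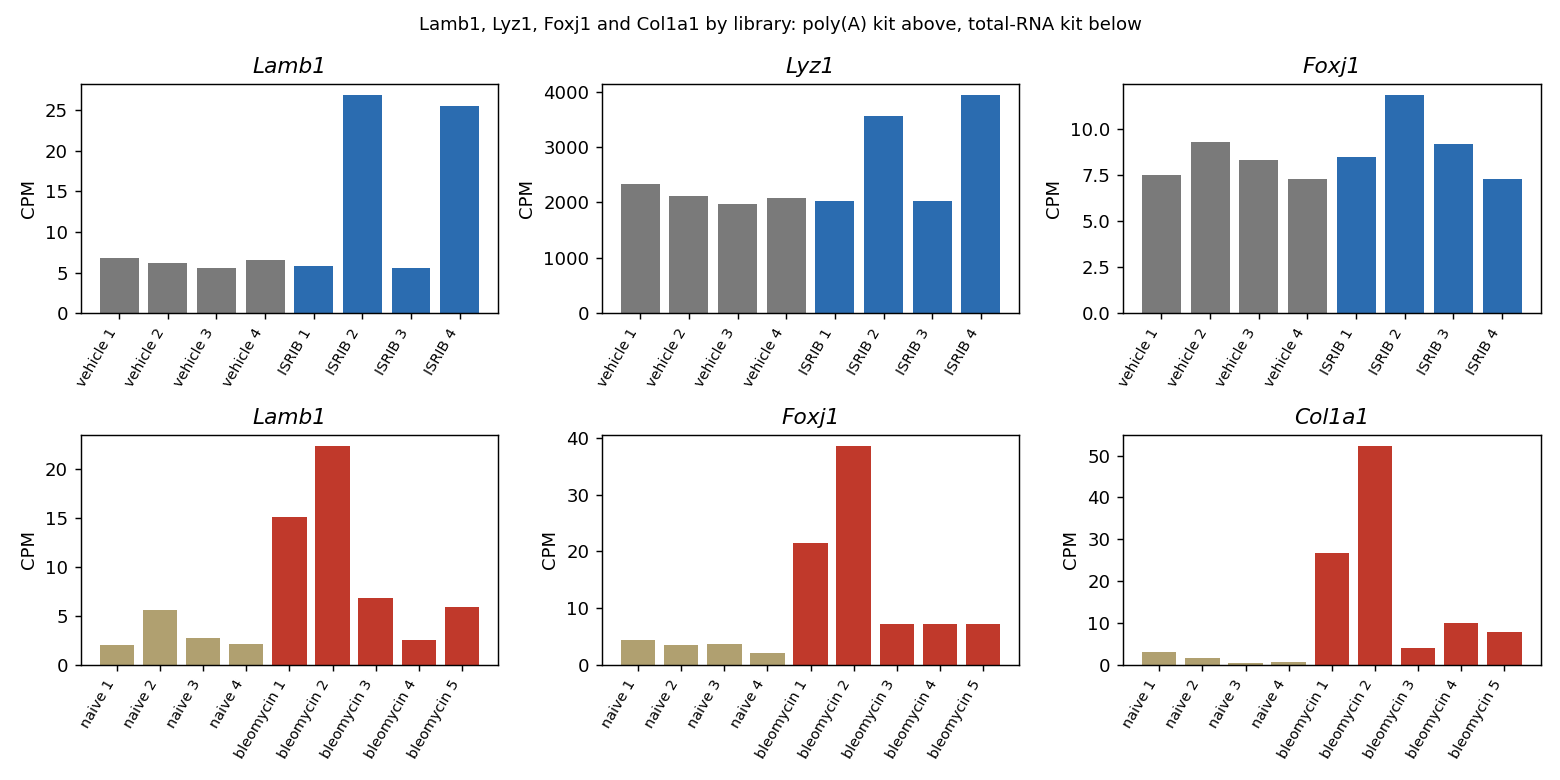
Bars give CPM by library for Lamb1, Lyz1 and Foxj1 in the poly(A) libraries (upper row) and for Lamb1, Foxj1 and Col1a1 in the total-RNA libraries (lower row). Lamb1 and Lyz1 are high in ISRIB 2 and ISRIB 4, and in the lower row all 3 genes are highest in bleomycin 1 and bleomycin 2.

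The nidogens were scarce. Nid1 had 14, 5, 7 and 14 counts after vehicle and 17, 14, 14 and 14 after ISRIB, or 0.874 ± 0.486 and 1.17 ± 0.081 CPM (SD, n = 4 each). Its log2 fold change was 0.46 (SE 0.39, adjusted p = 0.613, edgeR), and the ratio of summed counts, scaled for depth, was 1.40 with an exact 95% interval of 0.919 to 2.14 that covers counting error only. Nid2 held 13 counts over the 4 vehicle libraries and 15 over the 4 ISRIB libraries and did not pass the filter. Its ratio was 1.09 with an interval of 0.485 to 2.49 (counting error only), a span of ratios that these counts do not tell apart.

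In the rest of the pathway 1 gene was called after ISRIB. Of 4 other laminin chains (Lama1, Lama2, Lama4 and Lamc3) only Lama4 passed the filter, and it was not called. Lama4, the mesenchymal and endothelial alpha chain, averaged 1.06 ± 0.308 and 0.435 ± 0.32 CPM (SD, n = 4 each; -1.14, SE 0.47, adjusted p = 0.227, edgeR). Among 15 tested basement membrane collagens and proteoglycans only Col4a5, a collagen IV chain, was called: it was at 31.2 ± 1.38 CPM after vehicle and 39.5 ± 3.01 after ISRIB (0.34, SE 0.07, adjusted p = 0.0208, edgeR). Leaving out vehicle 1 (adjusted p = 0.0594), vehicle 2 (0.077), ISRIB 2 (0.0578) or both ISRIB 2 and ISRIB 4 (0.074) ended that call. None of 11 laminin receptors, 5 hemidesmosome genes and 3 proteases was called by edgeR. At an unadjusted p under 0.05 by edgeR stood 5 genes of these lists, beside 1934 of all 12054 genes tested. They were Lama4, Col4a5, Itga3 and, named after their values were seen, Col18a1 (0.41, unadjusted p = 0.0427) and Plec (-0.20, unadjusted p = 0.0108). The other partners named by rule gave log2 fold changes of -0.02 for Col4a1 and Col4a2, 0.14 for Hspg2, -0.16 for Itga3, 0.15 for Itga6, -0.15 for Itgb4 and -0.00095 for Dag1.

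Bleomycin against naive asked how AT2 transcripts differ 14 days after lung injury. Of the 6 members that passed the filter, 4 were called higher and 0 lower: Lamc1, Lama5, Lamb3 and Lamb1. Over all 11223 genes tested, 2304 were called (20.5%), 1259 higher (11.2%) and 1045 lower (9.31%). Groups did not overlap for 3 of the 6 tested members (Lamc1, Lama5 and Lamb3), against 19.7% of all genes. The median log2 fold change was 0.53 for the tested members and 0.0026 for all genes. By edgeR no member that was not called had an unadjusted p under 0.05, and DESeq2 also called 0 members lower. In these bulk libraries, a change in the make-up of the sorted cells and a change in RNA per cell cannot be told apart.

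Lamc1, the gamma chain of most laminins and the nidogen-binding one, had the largest of the 3 non-overlapping rises. It was at 106, 129 and 111 CPM in naive 1, 2 and 4, with naive 3 (420 counts) between them, and at 278, 278, 201, 204 and 254 CPM in bleomycin 1 to 5. The lowest bleomycin library was above the highest naive library, and the log2 fold change was 1.04 (SE 0.13, adjusted p = 2.14e-05, edgeR).

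Lama5, the alpha chain of mature alveolar laminin, was at 194, 179, 184 and 179 CPM in the naive libraries and at 343, 284, 268, 207 and 271 CPM after bleomycin. Every bleomycin library was above every naive one, bleomycin 1 being the highest and bleomycin 4 the lowest. The log2 fold change was 0.58 (SE 0.13, adjusted p = 0.00382, edgeR).

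Lamb3, the beta chain of the epithelial trimer, was at 185, 192, 166 and 178 CPM in the naive libraries and at 241, 283, 236, 246 and 251 CPM after bleomycin. The groups were apart, with little spread within each (log2 fold change 0.48, SE 0.11, adjusted p = 0.00373, edgeR). Lama3, the alpha chain of the same trimer, was at 114, 97.6, 135 and 112 CPM in naive and at 143, 83.6, 153, 137 and 181 CPM in bleomycin libraries. Of these, 4 bleomycin libraries were above all naive ones and bleomycin 2 was below them all, and Lama3 was not called (0.29, SE 0.17, adjusted p = 0.253, edgeR). Without bleomycin 2 its log2 fold change was 0.43 and passed (adjusted p = 0.0216).

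Lamb2, the abundant beta chain, was at 155, 152, 159 and 166 CPM in naive and at 154, 162, 179, 139 and 136 CPM in bleomycin libraries. The bleomycin libraries lay on both sides of the naive ones (log2 fold change -0.04, SE 0.11, adjusted p = 0.856, edgeR). Lamb1, the scarce beta chain, was at 2.01, 5.56, 2.70 and 2.09 CPM in naive (counts 6, 26, 9 and 7) and at 15.1, 22.4, 6.81, 2.48 and 5.86 CPM in bleomycin libraries (counts 57, 124, 44, 8 and 37). The groups overlapped: bleomycin 4 was below naive 2, and bleomycin 1 and bleomycin 2 were the highest. Lamb1 was called higher, by 1.72 on the log2 scale (SE 0.53, adjusted p = 0.0269, edgeR). The call was lost without naive 1 (adjusted p = 0.0826), naive 3 (0.0717), naive 4 (0.0887), bleomycin 1 (0.0503) or bleomycin 2 (1.24, 0.099), and with limma-voom (1.43, adjusted p = 0.172). Without both bleomycin 1 and bleomycin 2 it was 0.70 (adjusted p = 0.327).

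**Figure D3:**
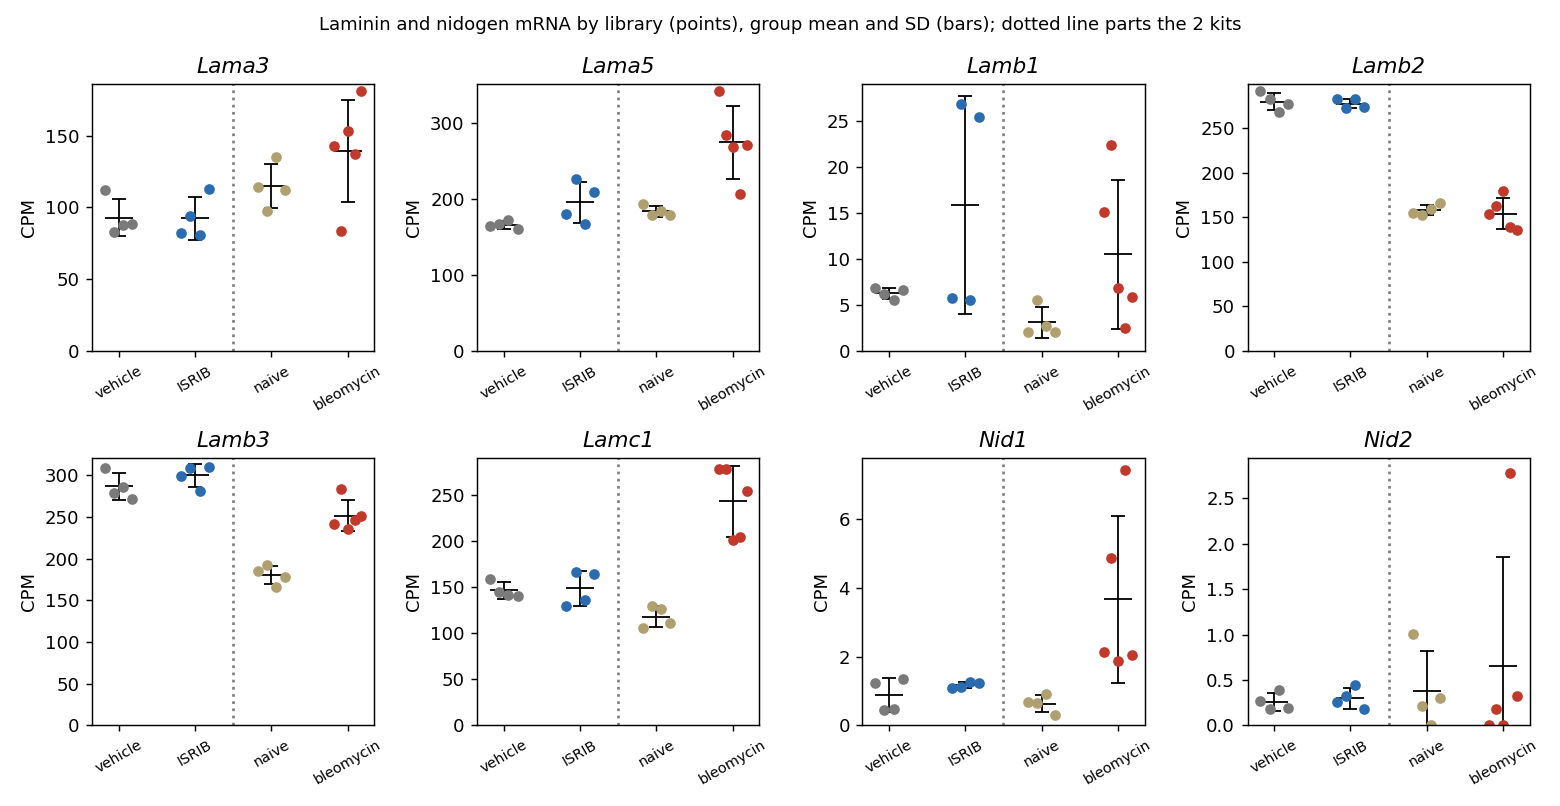
Each panel plots CPM of 1 member (linear axis from 0) in the vehicle, ISRIB, naive and bleomycin libraries, with 1 point a library and bars for the mean and SD; the dotted line separates the 2 kits. The bleomycin points of Lama5, Lamb3, Lamc1 and Nid1 lie above all naive points, and those of Lamb1 and Lama3 overlap them.

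The nidogens did not pass the filter in the total-RNA libraries and entered no fit across genes. Nid1 had 2, 3, 3 and 1 counts in the naive and 8, 27, 12, 24 and 13 in the bleomycin libraries. On the CPM scale the naive libraries ran from 0.298 to 0.901 and the bleomycin libraries from 1.86 to 7.43, without overlap. The sums of 9 and 84 counts gave a depth-scaled ratio of 5.29 (exact 95% interval 2.66 to 12, counting error only). A two-sided exact permutation test gave p = 0.0159, the smallest this design can give, and this p was not adjusted for the other members. With no filter on low counts edgeR gave Nid1 a log2 fold change of 2.48 (adjusted p = 0.0154), in a fit whose prior degrees of freedom were infinite, so that the gene's own spread had no weight.

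Nid2 had 3, 1, 0 and 1 counts in the naive and 0, 1, 0, 9 and 2 in the bleomycin libraries. Of the 12 bleomycin counts, 9 (75%) came from bleomycin 4, at 2.78 CPM. The ratio of summed counts was 1.36 (exact 95% interval 0.446 to 4.93), and an exact permutation test gave p = 0.968. Bleomycin 4 also had the highest Nid1 level, 7.43 CPM, and the highest level of Myh11, a smooth-muscle myosin, at 11.8 CPM. Myh11 was named after its values were seen. Other defining markers of other cell types, Pdgfra, Wt1, Cdh5 and Ptprc, held 1, 0, 44 and 5 counts in bleomycin 4, and each was highest in another bleomycin library. The part of such cells in the nidogen counts was not tested.

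**Figure D4:**
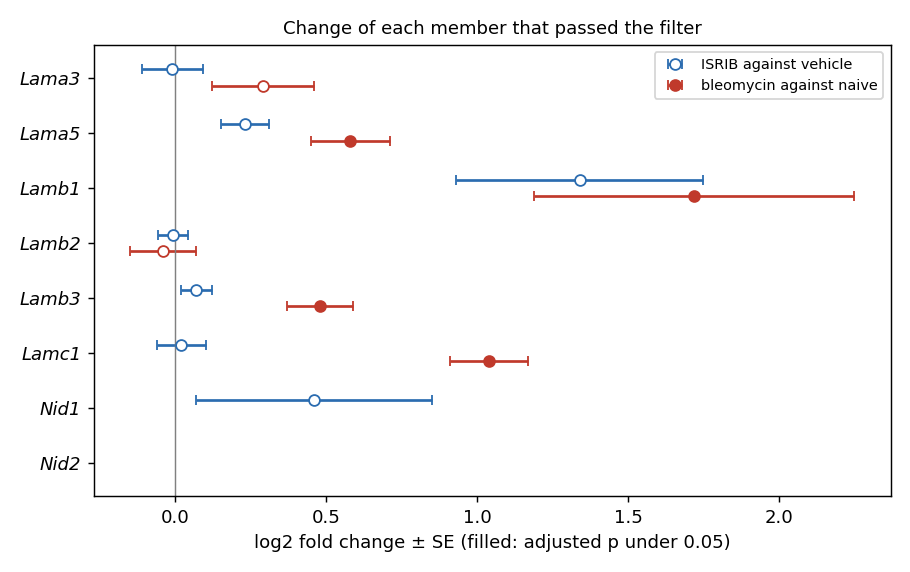
Log2 fold change with its SE for each member that passed the filter, ISRIB against vehicle in blue and bleomycin against naive in red; filled points have an adjusted p under 0.05. The filled points are Lamc1 (1.04), Lama5 (0.58), Lamb3 (0.48) and Lamb1 (1.72), all after bleomycin; Nid2 was not tested in either comparison and Nid1 only after ISRIB.

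Markers of other cells and cell states moved with the bleomycin group, in which 11.2% of all genes tested were called higher and 9.31% lower. Summed alveolar type 1 markers were at 1396 to 1621 CPM in naive and 2126 to 2645 CPM in bleomycin libraries, with 7 of 9 tested genes called higher. Summed transitional epithelial markers, such as keratin 8, were at 519 to 580 and 1083 to 1547 CPM, with 12 of 12 called higher. Both sums lay apart between the groups, as did Lamc1, Lama5 and Lamb3. So did the fibroblast sum and, narrowly, the smooth muscle and pericyte sum given below, and 19.7% of all genes tested.

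Fibroblast markers summed to 4.47 to 12.1 CPM in naive and 18.1 to 117 CPM in bleomycin libraries, with Lum at 0 in every library of both groups. The 3 that passed the filter, Col1a1, Col1a2 and Col3a1, were called higher. Among those not tested, Dcn was higher without overlap (means 0.0534 and 1.81 CPM). The groups overlapped for Pdgfra (means 0.928 and 1 CPM), Pdgfrb (0.903 and 1.15 CPM), Postn, Tcf21 and Inmt (0.879 and 0.159 CPM). Endothelial markers summed to 27.7 to 40.9 and 36.5 to 98.8 CPM, and smooth muscle and pericyte markers to 3.58 to 9.39 and 9.45 to 29.7 CPM. The defining leukocyte marker Ptprc was at 0 to 1.01 and 0.155 to 1.58 CPM. Airway markers summed to 448 to 906 CPM in naive and 479 to 916 CPM in bleomycin libraries, which overlapped. Of the 5 airway genes tested only Foxj1 was called, and it was higher. Foxj1 was at 2.09 to 4.36 CPM in naive libraries, at 21.4 and 38.6 CPM in bleomycin 1 and bleomycin 2, and at 7.12 to 7.13 CPM in the other 3. Col1a1 was at 26.7 and 52.3 CPM in bleomycin 1 and bleomycin 2, and at 3.87 to 9.9 CPM in the others. The Lamb1 level was highest in the same libraries. AT2 markers summed to 78088 to 85400 CPM in the naive libraries, to 47120 and 56259 CPM in bleomycin 1 and bleomycin 2, and to 70262 to 83193 CPM in the other 3. Mesothelial markers summed to 0.298 to 5.34 CPM in naive and 3.44 to 20.6 CPM in bleomycin libraries, with the 1 tested gene called higher. In bleomycin 3 to 5 the fibroblast (18.1 to 26.9 CPM) and endothelial (52.3 to 98.8 CPM) sums were also above every naive library. The part of these cells in the members' values was not tested.

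With bleomycin 1 and bleomycin 2 left out, a setting chosen after seeing the data, Lamc1 was higher by 0.90 (adjusted p = 3.17e-05, edgeR), Lama5 by 0.44 (adjusted p = 0.0074) and Lamb3 by 0.44 (adjusted p = 0.00337). The count of members called higher stayed at 4, but Lama3 (0.46, adjusted p = 0.0132) took the place of Lamb1. So 3 members were called in either set of libraries, and the calls of Lamb1 and Lama3 turned on which bleomycin libraries were in the fit.

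Genes that interact with laminins are given from lists that were chosen with earlier results of these data known. The counts of each list stand beside 11.2% of all genes tested called higher after bleomycin and 9.31% called lower. Among laminin receptors, 8 of 11 tested genes were called higher and none lower (by edgeR; none of the other 3 had an unadjusted p under 0.05), with a median log2 fold change of 0.47. The integrin alpha chains that bind laminin rose together: Itga3 went from 74.8 ± 10.1 CPM (SD, n = 4) to 158 ± 12.2 (n = 5; log2 fold change 1.08, adjusted p = 6.86e-06), Itga6 from 49 ± 10.5 to 154 ± 30.1 (1.65, adjusted p = 1.61e-06) and Itga7 from 51 ± 4.37 to 146 ± 9.56 (1.51, adjusted p = 1.44e-07). Their shared beta chain Itgb1 was at 399 ± 8.29 and 408 ± 56.9 CPM and was not called (adjusted p = 0.877). Itgb4, the hemidesmosomal partner of alpha 6, was called at 2.26 (SE 0.56, adjusted p = 0.00796). Its highest libraries were bleomycin 1 and bleomycin 2, at 18.5 and 27.4 CPM, and without them it was 1.16 (adjusted p = 0.109); limma-voom gave 2.11 (adjusted p = 0.0914). Dag1, which encodes dystroglycan, was called at 0.46 (adjusted p = 0.0223), a call lost without naive 1 (adjusted p = 0.08), naive 3 (0.0517) or naive 4 (0.0732). Itgb1 was named after its values were seen.

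Among 14 tested basement membrane collagens and proteoglycans, 7 were called higher and 1 lower, with a median log2 fold change of 0.57. The collagen IV chains Col4a1 (1.05, adjusted p = 4.04e-05) and Col4a2 (0.81, adjusted p = 1.82e-04) rose, as did the heparan sulfate proteoglycan agrin (Agrn, 1.51, adjusted p = 1.64e-06) and the collagen-binding protein Sparc (1.10, adjusted p = 3.20e-06). The perlecan gene Hspg2, a further heparan sulfate proteoglycan that binds laminin and nidogen, was at 124 ± 6.33 and 107 ± 16.9 CPM and was not called (-0.21, adjusted p = 0.236). Smoc2, a matricellular protein, fell by 1.70 (adjusted p = 8.04e-04).

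Of 5 tested hemidesmosome genes 4 were called higher and 1 lower. Plec, the linker of integrin alpha 6 beta 4 to keratin, was higher by 0.50 (adjusted p = 0.00329), and Dst, whose epithelial product links hemidesmosomes to keratin, fell by 1.20 (adjusted p = 2.08e-05). The counts for Dst do not separate its epithelial from its other products. Of 9 proteases that cut laminins or nidogens 3 passed the filter: Mmp14 rose by 1.05 (adjusted p = 8.12e-04), Bmp1 fell by 1.15 (adjusted p = 3.84e-05) and Adamts1 was not called. The laminin chains Lama1, Lama2, Lama4 and Lamc3 did not pass the filter, and Lama4 held at most 9 counts in any total-RNA library.

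**Figure D5:**
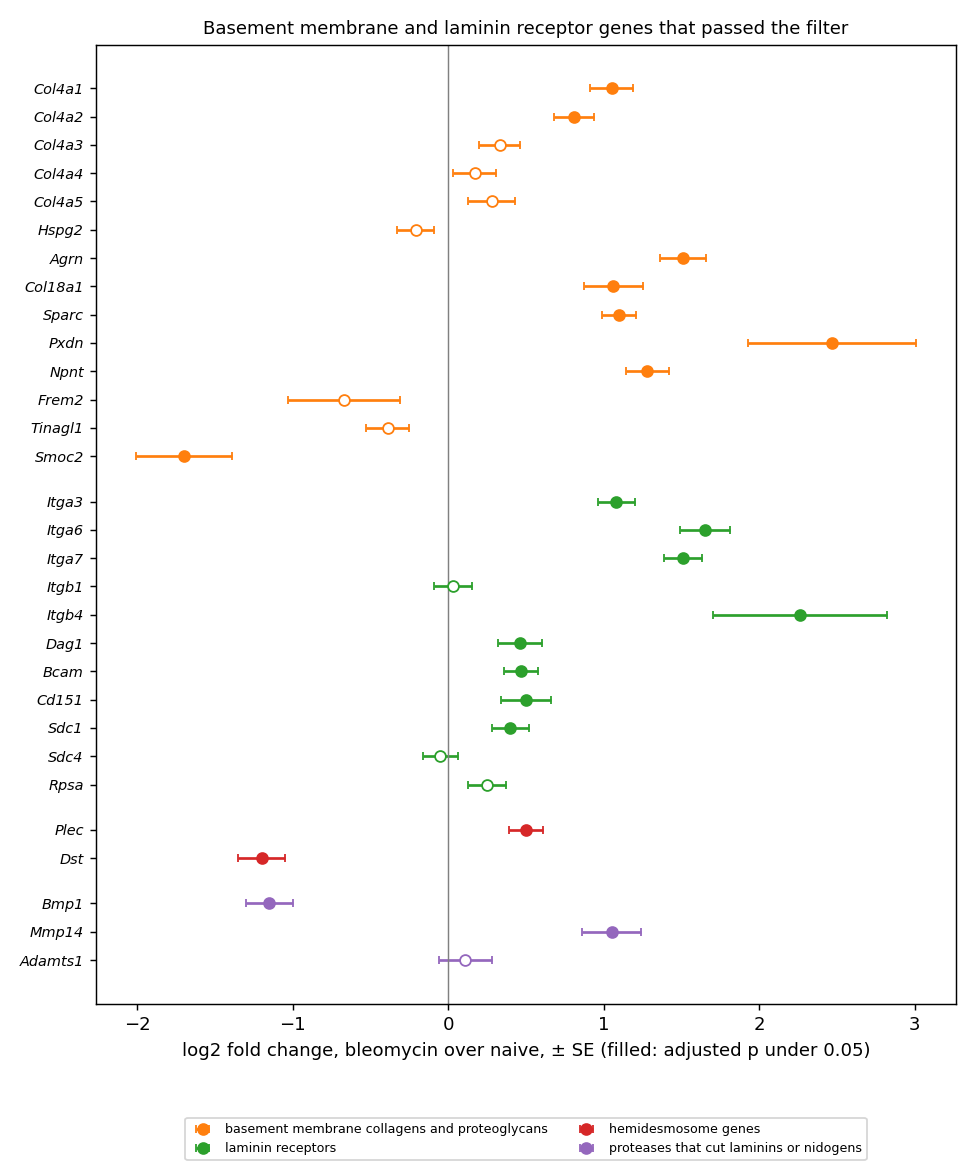
Log2 fold change with SE, bleomycin over naive, of the listed basement membrane, receptor, hemidesmosome and protease genes that passed the filter, coloured by list; filled points have an adjusted p under 0.05, and Itga6, Itgb4 and Cd151, which 2 lists share, are drawn once, with the receptors. Most filled points lie to the right of 0; Smoc2, Dst and Bmp1 are the filled points to the left.

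Whether the chains shifted against each other was read from log2 ratios of 2 members within a library. With 12 ratios tested and a smallest possible p of 0.0286 for ISRIB and 0.0159 for bleomycin, no single ratio could pass the adjustment by itself, so these values are descriptions (two-sided exact permutation tests, adjusted p 0.381 to 0.54 over 12). The lowest raw value was for Lamb2 over Lamb1 after bleomycin. This log2 ratio was 5.95, 4.65, 5.64 and 6.01 in naive 1 to 4 and 3.31, 2.83, 4.62, 5.55 and 4.43 in bleomycin 1 to 5. All but 1 bleomycin library were below the lowest naive one, the mean difference was -1.42, and the exact permutation p was 0.0317 (adjusted p = 0.381). Lama5 over Lama3 and Lamb3 over Lama3 differed by 0.31 and 0.23 after bleomycin, with overlapping groups (adjusted p = 0.54 for both, exact permutation).

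Over the 9 total-RNA libraries the members' log2 CPM varied together to unlike degrees, given as a description because the libraries share the difference between groups. Pearson's r was 0.93 for Lamb3 with Lamc1, 0.91 for Lama5 with Lamc1 and 0.80 for Lama5 with Lamb3. Lamb2 had r of -0.23 with Lamc1 and 0.01 with Lama5, and Lama3 had r of 0.10 with Lamb3. Among all genes with a mean of at least 5 CPM, the most like Lamb3 were Cfl1 (r = 0.996), H2afz (0.988) and Ccnb2 (0.986), and the most like Lamc1 were Fat1, Nek2 and Pygl (0.989 each). Lama5 was most like Pros1 (0.970), Arl4c (0.969) and Samd4 (0.961), and Lamb1 most like Spata18 (0.980), Sec61a1 (0.974) and Plxna1 (0.961). The highest r was lower for Lamb2 (Bcl7c 0.934, Plekhj1 0.922, Atxn3 0.910) and for Lama3 (Xpnpep3 0.895, Myom3 0.885, Adcy6 0.881).

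The responses of the members to ISRIB and to bleomycin were measured with different kits and controls. Lamc1, Lama5 and Lamb3 were at log2 fold changes of 0.02, 0.23 and 0.07 after ISRIB and at 1.04, 0.58 and 0.48 after bleomycin. The difference between these 2 responses was not tested.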

How the data were processed

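Raw read counts per gene were deposited by the authors as 2 tables of 43430 Ensembl IDs, 1 per kit; whole numbers with unlike column sums set the unit. Per the submitters' processing notes, the build was mm10 and the tools were bcl2fastq 2.19.1, FastQC, Trimmomatic 0.36, STAR 2.6.0 and HTSeq 0.11.2; the strand setting and annotation are not stated there. Symbols, positions and exon lengths came from GENCODE M21 (42462 IDs matched).

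Each comparison was fitted within its kit on the whole table, with group as the only term: filterByExpr (minimum count 10, minimum total 15), TMM factors, and a quasi-likelihood test (edgeR 4.0.16, R 4.3.3), adjusted by Benjamini-Hochberg and called at 0.05. The SE is the log2 fold change over the root of its F statistic. Ratios between members used log2(CPM + 0.5) and exact permutation tests (SciPy 1.17.1), adjusted over 12. Intervals are exact (Clopper-Pearson, 95%) and cover counting error only. The fit was tested on simulated data.

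Named were all members, 8 partner genes, at most the 2 called genes of lowest p per list and direction, and, over the 9 total-RNA libraries, the 3 genes most like each tested member; exceptions are stated, and 1 gene that the rule names is not reported here. The members, lists and tests were chosen with earlier results of these data known. Alternatives were RLE factors, no filter, DESeq2 1.42.0, limma-voom (limma 3.58.1), a replicate block, removal of ribosomal RNA-like and mitochondrial gene models, each library left out, and 2 settings added after seeing the data, in which ISRIB 2 and 4, or bleomycin 1 and 2, were left out together.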

Additional observations from a re-analysis of the deposited data

Results flagged for a closer look

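In 56 groups of values, a library was marked where its gap to the nearest other was large for its group (Dixon's test); chance marks about 1 group in 20. Nid2 in bleomycin 4 was 2.78 CPM, and the other 4 bleomycin libraries were at 0 to 0.317 CPM. The log2 ratio of Lamb3 to Lama3 in bleomycin 2 was 1.75, and the other bleomycin libraries were at 0.47 to 0.84; Lama3 was lowest and Lamb3 highest in that library. The log2 ratio of Lamc1 to Lamb1 in naive 2 was 4.41, and the other naive libraries were at 5.31 to 5.42; naive 2 held 26 Lamb1 counts and the others 6 to 9.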

How the results depend on the processing

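After ISRIB, 265 genes were called (133 higher, 132 lower). With no filter on low counts 648 were called (321 higher, 327 lower), 2 of them members, Lamb1 (adjusted p = 1.26e-20) and Lama5 (0.00817); the prior degrees of freedom were infinite in that fit and 10.8 with the filter. DESeq2 called 406 (203 in each direction), and 151 (88 higher, 63 lower) were called without both ISRIB 2 and ISRIB 4. Leaving out 1 library at a time gave 86 to 269 calls (39 to 146 higher, 47 to 123 lower) and 0 to 2 members; the lowest counts were without vehicle 1 (86), vehicle 2 (102) and ISRIB 4 (159). After bleomycin the same step gave 680 to 1223 genes lower, 680 being without naive 4, and 3 to 4 members higher. The cause of these shifts was not tested.

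Some values that were not called changed sign. Without both ISRIB 2 and ISRIB 4 the log2 fold changes after ISRIB were -0.14 for Lamb1, 0.02 for Lamb2, -0.14 for Lamc1 and -0.06 for Itga6; limma-voom gave 0.00035 for Dag1. Over the fits with 1 library left out, values lay on both sides of 0 after ISRIB for Lama3 (-0.12 to 0.09), Lamb2 (-0.03 to 0.01), Lamc1 (-0.03 to 0.09), Col4a1 (-0.06 to 0.03), Col4a2 (-0.06 to 0.02), Dag1 (-0.03 to 0.02) and Itgb4 (-0.33 to 0.04), and after bleomycin for Lamb2 (-0.09 to 0.01). None of these was called under the setting that turned it. The Nid1 to Lamc1 ratio after bleomycin was -0.0046 with a pseudocount of 2.

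Replicate numbers did not pair the libraries: deviations of same-numbered libraries correlated at -0.109 to 0.085 for ISRIB and -0.039 to 0.047 for bleomycin. With the replicate block 277 and 2187 genes and 0 and 4 members were called; bleomycin 5 has no naive library of its number and carries no weight there. The block gave 5.7e-05 for Dag1 after ISRIB and 0.00049 for Lamb2 after bleomycin, and Dag1 after bleomycin was 0.42 (adjusted p = 0.0543). With the longest transcript as the length, levels in CPM per kb were 58.8 for Lamb3, 1.08 for Lamb1, 49.7 for Lamb2 and 19.2 for Lamc1 in vehicle libraries, and 37.1 for Lamb3, 0.534 for Lamb1 and 28.1 for Lamb2 in naive libraries, which puts Lamb3 first in both. Depth limits what the nidogens, with 5 to 84 summed counts per group, and Lamb1, with 48 in the naive group, can show.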
